A study of Mus musculus with 10 samples.

Results

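The genes described here are the 5 muscarinic acetylcholine receptors (Chrm1 to Chrm5) and 5 genes of acetylcholine supply and breakdown (Chat, Slc5a7, Slc18a3, Ache and Bche), taken by gene symbol from the table of retinal transcripts. All 10 were found among 25905 genes, and 8 of them, all but Chrm4 and Chrm5, averaged at least 1 CPM and were tested. The tissue was the right and the left retina of 5 mice (strain C57BL/6J, genotype wild type, age postnatal day 34), numbered 61, 64, 65, 66 and 68. Every animal wore a −20 D lens in a goggle over a single eye, a standard way to drive an eye towards myopia, starting at postnatal day 24 and lasting 10 days, while its other eye went without. Which eye wore it is not stated for any animal: only left or right is given, so the groups are right retina and left retina, with 5 libraries each, and neither is a lens or a control group. The study is about retinal gene expression under induced myopia, and the comparisons the labels allow are right against left and mouse against mouse. For right against left, the p-values measure the spread of the difference between fellow retinas over these 5 mice. Between mice, they set the mouse means against the spread between fellow retinas.

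Acetylcholine is made in the mouse retina by starburst amacrine cells, neurons of the inner retina best known for the detection of motion direction. Choline enters the cell through Slc5a7, Chat joins it to an acetyl group, Slc18a3 loads the product into synaptic vesicles, and after release Ache splits it in the synaptic cleft. Muscarinic receptors are G protein-coupled: M1, M3 and M5 act through Gq and phospholipase C, M2 and M4 through Gi, which restrains adenylyl cyclase. Atropine, which blocks all of them, is used as eye drops against the progress of myopia in children.

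Chat and Slc18a3 form a nested locus on chromosome 14, both on the minus strand of GRCm38. Slc18a3 (bases 32462438 to 32464850) lies inside an intron of Chat (bases 32408203 to 32465989), and its start is 1139 bases downstream of the outermost Chat start. The exons of the pair share 0 bases in GENCODE M21, but unspliced Chat RNA runs through Slc18a3 on the same strand. Total RNA holds unspliced transcripts, so some reads listed under Slc18a3 may come from Chat pre-mRNA; their part was not tested. The stretches before the starts are shown for this pair, for the choline transporter Slc5a7 and for Chrm2, the receptor with the highest level per exon length. They are RefSeq sequence of GRCm38.p6, written 5′ to 3′ on the strand of the gene, with every CG pair in capitals. The Chat stretch (chr14:32465990-32466159) is shorter because the rest of its window lies in an annotated exon. The others are Slc18a3 (chr14:32464851-32465100), Slc5a7 (chr17:54299035-54299284, minus strand) and Chrm2 (chr6:36387834-36388083, plus strand).
Chat: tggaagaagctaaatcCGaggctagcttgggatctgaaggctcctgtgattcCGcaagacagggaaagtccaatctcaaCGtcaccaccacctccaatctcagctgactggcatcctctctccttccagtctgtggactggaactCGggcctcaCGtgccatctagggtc
Slc18a3: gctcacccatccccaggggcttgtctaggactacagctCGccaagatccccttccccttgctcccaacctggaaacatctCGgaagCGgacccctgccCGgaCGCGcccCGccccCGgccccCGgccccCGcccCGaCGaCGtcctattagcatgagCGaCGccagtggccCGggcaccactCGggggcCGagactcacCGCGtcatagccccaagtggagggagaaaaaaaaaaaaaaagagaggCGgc
Slc5a7: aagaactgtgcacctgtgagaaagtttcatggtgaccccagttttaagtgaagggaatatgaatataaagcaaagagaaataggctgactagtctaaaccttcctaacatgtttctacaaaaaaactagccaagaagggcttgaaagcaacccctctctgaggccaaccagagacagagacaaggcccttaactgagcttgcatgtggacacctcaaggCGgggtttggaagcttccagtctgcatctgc
Chrm2: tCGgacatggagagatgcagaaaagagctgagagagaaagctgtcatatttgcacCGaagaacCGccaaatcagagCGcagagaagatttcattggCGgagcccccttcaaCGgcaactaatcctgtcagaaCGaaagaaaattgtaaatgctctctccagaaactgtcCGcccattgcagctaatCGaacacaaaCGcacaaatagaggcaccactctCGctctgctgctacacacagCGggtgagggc
The start of Slc18a3 is rich in CG pairs, with 21 in 250 bases, against 5 in the 170 bases printed for Chat. The full Chat window of 250 bases, which reaches into the exon, has 8. Slc5a7 has 1 in 250 bases and Chrm2 has 12. Over 32851 RefSeq windows of this length the median was 6 CG pairs, with quartiles at 2 and 16. The GC box GGGCGG, searched on both strands, occurs in the printed stretches of Slc18a3 and Chrm2 and not in those of Chat and Slc5a7. It is found in 32.7% of all windows and in 5 of the 9 windows of the genes described here; Chrm1 has no entry in the sequence table. These matches describe the letters and nothing more.

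Values are in CPM (counts scaled to the same library total), and 1 CPM stood for 89.7 to 113.8 counts. The genes listed held between 29700000 and 37300000 counts per library. After the constant 0.0001 was taken off, the values of the 10 genes in each library were whole numbers of counts within 0.1 of a count, so the counts given below can be read off. Rod genes, which mark the tissue as retina, summed to 10233 to 10786 CPM in right retinas and 10021 to 11779 CPM in left retinas. Markers of neighbouring tissue were high in single libraries: 9 lens genes summed to 772.4 CPM in the right retina of mouse 65, against 28.0 to 121.6 CPM in the other right and 8.99 to 53.1 CPM in the left retinas, and 8 skeletal muscle genes summed to 79.5 CPM in the left retina of mouse 68, against 1.57 to 3.96 CPM elsewhere. The labels also record damage to a raw read file of the right retina of mouse 64. Nothing in the labels says that libraries were prepared on different days. In bulk tissue fewer cells of a type and less RNA per cell cannot be told apart.

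Acetylcholinesterase had the highest level of the 10 genes and M5 the lowest, with exon length taken into account. Per kilobase of exon annotated in GENCODE M21, Ache stood at 2.73 ± 0.11 CPM per kb, Chrm2 at 1.13 ± 0.0919, Slc5a7 at 1.01 ± 0.101, Chat at 0.837 ± 0.07 and Chrm3 at 0.595 ± 0.057 CPM per kb (SD, n = 10 retinas of 5 mice). Lower came Slc18a3 at 0.493 ± 0.0782, Chrm1 at 0.323 ± 0.0435, Bche at 0.233 ± 0.0253, Chrm4 at 0.153 ± 0.0515 and Chrm5 at 0.0911 ± 0.0402 CPM per kb. Between neighbours in this order, the ranges over 10 retinas were apart for Ache and Chrm2 and for Chat and Chrm3, and overlapped for the other 7 pairs of neighbours. Chrm2 was above Slc5a7 in 8 of 10 retinas and Slc5a7 above Chat in 9 of 10, so this order was not the same in every retina. Chrm4 and Chrm5 are annotated with coding exon only (1440 and 1599 bases), so their level is per coding length and that of the other genes includes untranslated exon.

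**Figure D1:**
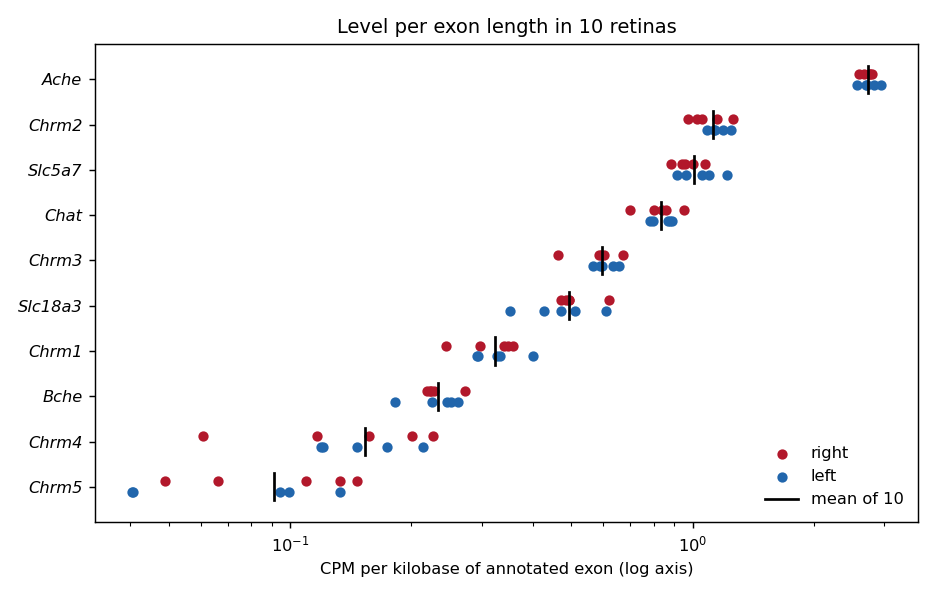
Level of each gene in CPM per kilobase of annotated exon (log axis), with right retinas in red above left retinas in blue and a black line at the mean of 10 retinas. Ache lies at 2.56 to 2.94 CPM per kb, apart from all others, and Chrm5 reaches at most 0.147 CPM per kb.

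Among the receptors the order M2, M3, M1 held in 10 of 10 retinas, with M4 and M5 below. Chrm2, whose Gi-coupled product is best known as the receptor that slows the heart, took 47.0% to 53.2% of the summed receptor level per exon length in right retinas and 47.1% to 52.3% in left retinas. Chrm3, the Gq-coupled receptor of smooth muscle and glands, took 19.6% to 28.5% in right and 25.7% to 26.5% in left retinas. Chrm1, the Gq-coupled receptor abundant in forebrain neurons, took 11.9% to 16.6% in right and 12.2% to 17.5% in left retinas. Chrm4 and Chrm5 took at most 9.36% and 6.45% in any retina. These shares rest on exon lengths of an annotation that may differ from the one used for counting.

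In mice 61, 64, 65, 66 and 68, Chrm2 (chromosome 6, bases 36388084 to 36528414) stood at 6.38, 7.62, 5.91, 6.98 and 6.20 CPM in the right retina and at 6.83, 6.87, 6.59, 7.55 and 7.196 CPM in the left retina. The right retina was the lower of the pair in 4 of 5 mice, mouse 64 being the exception, and the sides overlap. The means were 6.62 ± 0.68 CPM on the right and 7.01 ± 0.371 CPM on the left (SD, n = 5 each), a difference of −0.075 on the log2(CPM + 1) scale (SE 0.060, 95% interval −0.21 to 0.059). A noncoding gene on the opposite strand, 9330158H04Rik, shares 142 exon bases with Chrm2 and stood at 0.303 to 0.776 CPM. Annotated antisense genes also share 329 exon bases with Chrm1 and 98 with Ache, and whether the authors' counting used the strand is not given in the sources used here.

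Chrm3 (chromosome 13, bases 9875486 to 10360847) measured 3.70, 2.89, 3.67, 4.19 and 3.78 CPM in the right retinas of the same mice and 3.67, 3.71, 3.54, 3.96 and 4.09 CPM in the left retinas. The right retina of mouse 64 was the lowest of the 10, and the other 9 lay within 3.54 to 4.19 CPM. Fellow eyes went both ways, higher on the right in 3 mice, with a difference of −0.051 (SE 0.069, 95% interval −0.21 to 0.10).

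Chrm1 (chromosome 19, bases 8663789 to 8683587) measured 2.25, 2.21, 1.58, 1.92 and 2.32 CPM in right retinas and 2.12, 2.60, 1.89, 1.90 and 2.16 CPM in left retinas. Its lowest value was in the right retina of mouse 65 and its highest in the left retina of mouse 64, and the right retina was higher in 3 of 5 mice. On the log2(CPM + 1) scale it differed by −0.037 (SE 0.069, 95% interval −0.19 to 0.12).

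The remaining receptors were the lowest of the 10 genes. Chrm4, the Gi-coupled receptor best known from the striatum (chromosome 2, bases 91927249 to 91928688), had 26, 24, 15, 37 and 8 counts in right retinas and 20, 16, 16, 27 and 29 counts in left retinas. Chrm5, the Gq-coupled receptor linked to midbrain dopamine neurons (chromosome 2, bases 112479171 to 112480769), had 7, 25, 19, 12 and 16 counts in right retinas and 15, 6, 14, 7 and 20 counts in left retinas. Both were thus detected in 10 of 10 retinas, at 0.0875 to 0.325 CPM for Chrm4 and 0.0648 to 0.235 CPM for Chrm5. Counting error alone gives a coefficient of variation of 21.4% and 26.6% at these counts, and the observed values were 33.6% and 44.1%. Both lay under the mean of 1 CPM required for the test, and in a fit without that filter they differed by −0.0068 (95% interval −0.13 to 0.11) and 0.039 (95% interval −0.059 to 0.14) log2(CPM + 1) units.

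Chat, choline acetyltransferase, measured 3.94, 3.29, 4.47, 3.76 and 4.05 CPM in right retinas and 4.14, 3.75, 4.18, 3.68 and 4.09 CPM in left retinas. The right retinas held both the highest value (mouse 65) and the lowest (mouse 64), so the sides overlap fully. The means were 3.90 ± 0.432 CPM on the right and 3.97 ± 0.234 CPM on the left (SD, n = 5 each), and the difference was −0.022 (SE 0.061, 95% interval −0.16 to 0.11).

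Slc5a7, the high-affinity choline transporter (chromosome 17, bases 54273590 to 54299034), measured 6.06, 5.32, 4.99, 5.65 and 5.42 CPM in right retinas and 6.86, 6.19, 5.97, 5.42 and 5.15 CPM in left retinas. It was lower on the right in mice 61, 64 and 65 and higher in mice 66 and 68. Of the 10 genes its difference was the farthest below 0, at −0.090 (SE 0.064, 95% interval −0.23 to 0.053), with means of 5.48 ± 0.399 CPM on the right and 5.92 ± 0.669 CPM on the left (SD, n = 5 each).

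Slc18a3, the vesicular acetylcholine transporter, measured 1.14, 1.19, 1.49, 1.17 and 1.19 CPM in right retinas and 1.23, 1.03, 0.848, 1.14 and 1.47 CPM in left retinas. Mouse 65 held both extremes, with 134 counts on the right and 79 on the left, and the right retinas of the other 4 mice lay within 1.14 to 1.19 CPM. The difference was 0.066 (SE 0.091, 95% interval −0.14 to 0.27), and without mouse 65 it was −0.026. Relative to Chat, the level of Slc18a3 per exon length was 0.562 to 0.707 in right retinas and 0.396 to 0.699 in left retinas. The lowest ratio was that of the left retina of mouse 65. Counting error alone gives a coefficient of variation of 9.30% for Slc18a3 and 5.12% for Chat. Whether the ratio varied beyond counting error was not tested.

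Ache (chromosome 5, bases 137287519 to 137294466) was the steadiest of the 10 genes. It measured 12.7, 12.9, 12.3, 12.7 and 11.97 CPM in right retinas and 13.03, 13.6, 11.9, 12.4 and 12.5 CPM in left retinas, on 1094 to 1449 counts. All 10 values lay within 11.9 to 13.6 CPM, a coefficient of variation of 4.05% where counting error alone gives 2.85%. The difference was −0.016 (SE 0.044, 95% interval −0.11 to 0.082). Bche, the butyrylcholinesterase also abundant in blood serum (chromosome 3, bases 73635808 to 73708415), measured 1.503, 1.53, 1.83, 1.51 and 1.48 CPM in right retinas and 1.69, 1.52, 1.65, 1.23 and 1.76 CPM in left retinas. Its means were 1.57 ± 0.146 CPM on the right and 1.57 ± 0.210 CPM on the left (SD, n = 5 each), a difference of 0.0023 (SE 0.073, 95% interval −0.16 to 0.17). Per exon length Ache stood 9.83 to 12.3 times above Bche in right retinas and 10.3 to 14.7 times above it in left retinas. Prima1 and Colq, which anchor cholinesterase to membranes and to matrix, were both under the filter and were not tested. Prima1 averaged 0.228 ± 0.0678 CPM on the right and 0.239 ± 0.0672 CPM on the left (SD, n = 5 each). Colq averaged 0.0494 ± 0.0513 CPM on the right and 0.0037 ± 0.00827 CPM on the left. Its SD exceeded its mean on both sides, so its values are near the floor and give no difference between sides.

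**Figure D2:**
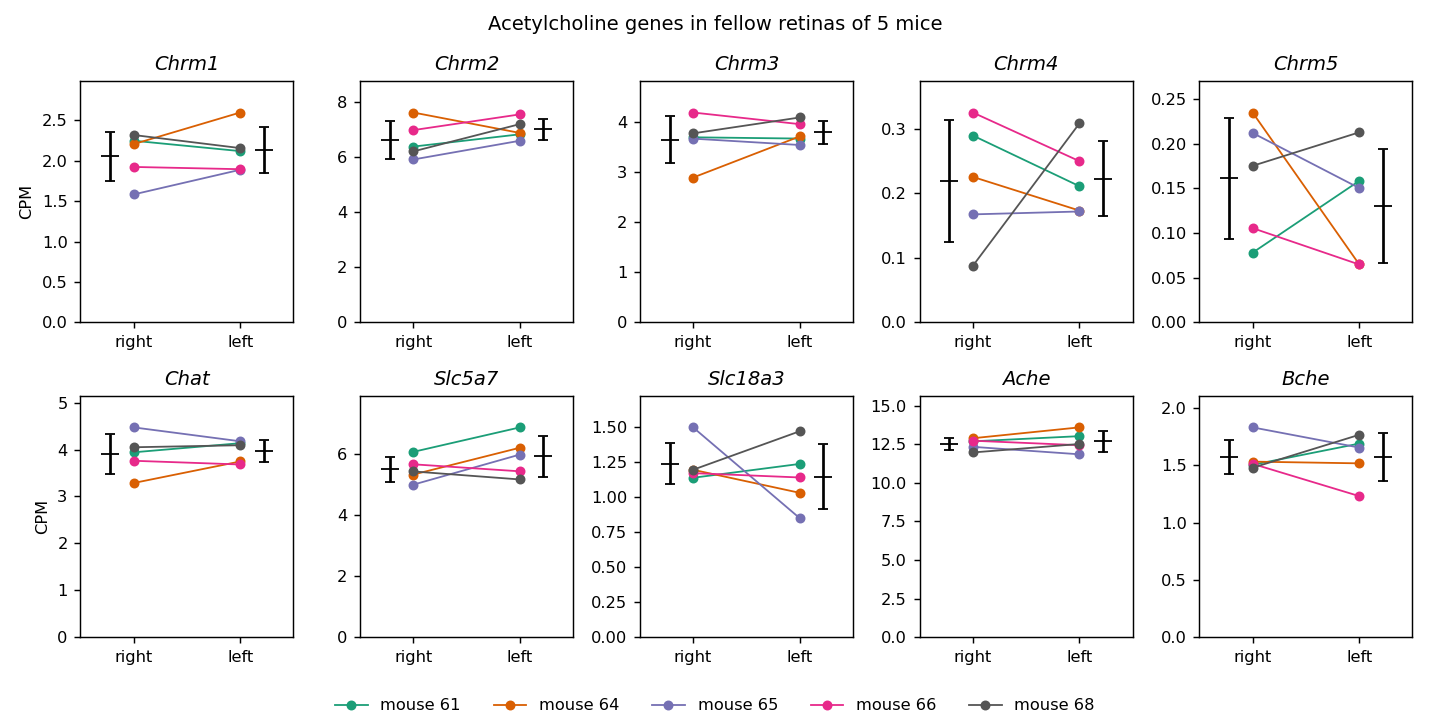
CPM of each gene (axis from 0) in the right and the left retina of 5 mice, with lines joining fellow eyes and black marks for the mean and SD of a side (n = 5). Fellow eyes differ in both directions in every panel, Ache stays within 11.9 to 13.6 CPM, and Slc18a3 in mouse 65 lies at 1.49 CPM on the right and 0.848 CPM on the left.

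None of the 8 tested members passed right against left (limma, Benjamini-Hochberg adjusted p = 0.9996 for each), and none had an unadjusted p under 0.05; the lowest was that of Slc5a7 (limma unadjusted p = 0.191). Across all 14210 tested genes limma called 0, or 0% of them, and 333 (2.34%) had an unadjusted p under 0.05, 1.53% higher and 0.809% lower on the right. The median difference of the 8 members was −0.029 log2(CPM + 1) units, beside 0.0017 for all tested genes. The right retina was higher in 5 of 5 mice for 0 of the 8 members and for 2.78% of all tested genes, and lower in 5 of 5 mice for 0 members and for 2.01% (4.79% in all). Limma-voom on the implied counts, a scale without the pseudocount of 1 CPM, also called 0 genes (336 at an unadjusted p under 0.05). Its 95% intervals bound the ratio of right to left at 0.824 to 1.13 for Chrm1, 0.849 to 1.05 for Chrm2, 0.839 to 1.10 for Chrm3 and 0.874 to 1.10 for Chat. The bounds were 0.828 to 1.04 for Slc5a7, 0.841 to 1.39 for Slc18a3, 0.917 to 1.06 for Ache and 0.838 to 1.21 for Bche. For Chrm4 and Chrm5, fitted without a filter, they were far wider, at 0.596 to 1.68 and 0.67 to 2.32.

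**Figure D3:**
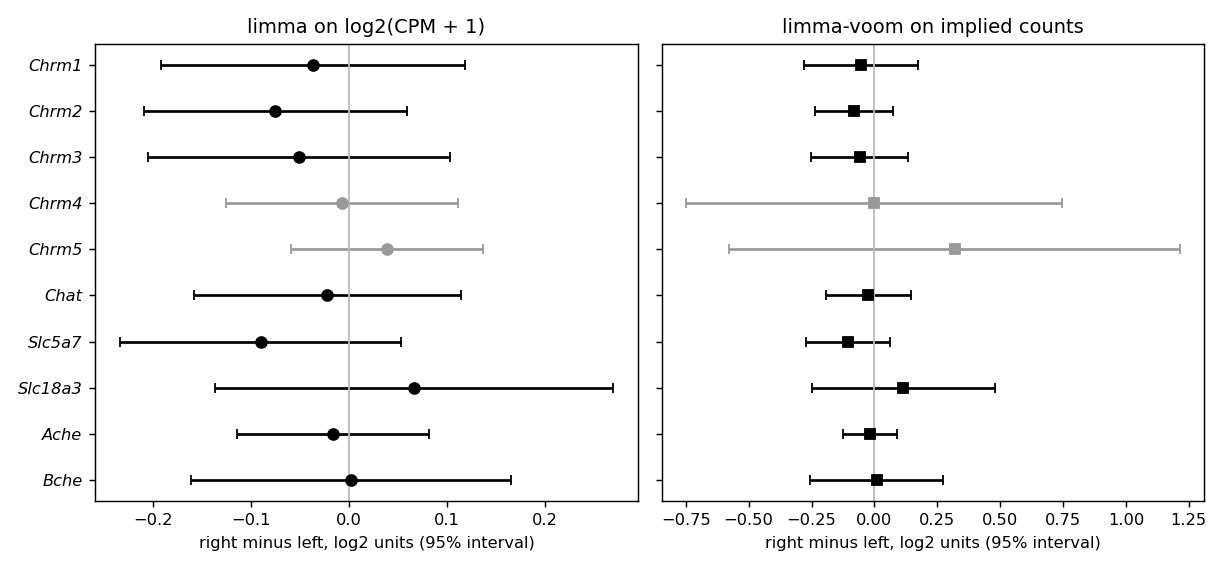
Right minus left of each gene in log2 units with its 95% interval, from limma on log2(CPM + 1) at left and from limma-voom on implied counts at right; grey marks Chrm4 and Chrm5, fitted without the filter. Every interval spans 0, and those of Chrm4 and Chrm5 widen most on the scale without the pseudocount of 1 CPM.

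The summed CPM of the 5 receptors were 12.7, 13.2, 11.5, 13.5 and 12.6 in the right retinas of mice 61, 64, 65, 66 and 68 and 12.99, 13.4, 12.3, 13.7 and 14.0 in the left retinas. The right retina was the lower in 5 of 5 mice, by 0.195 to 1.40 CPM, a description for which no test is given. The direction depends on the scaling and on Chrm2. With every library set to the same sum over the listed genes the right retina was lower in 3 of 5 mice, with median-ratio scaling in 4, per exon length in 3, and without Chrm2 in 3.

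Since 1 eye of each mouse wore the lens and the side is unknown, the size of the difference between fellow eyes was also taken without its sign. Its root mean square over 5 mice was 0.052 log2(CPM + 1) units for Ache, 0.080 for Chat, 0.11 for Chrm1, 0.12 for Bche, 0.13 for Chrm2 and Chrm3, 0.15 for Slc5a7 and 0.22 for Slc18a3. Over all tested genes the median was 0.13, and the members ranked from the 5.08th percentile (Ache) to the 86.7th (Slc18a3). The spread of low genes is larger by counting error, so these ranks describe size and not a response. Mouse 66 had 9 of the 10 genes higher on the right and mouse 68 had 8 of 10 lower on the right, while 60.4% of all tested genes were higher on the right in mouse 66 and 47.1% in mouse 68.

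No member passed the test between mice. Limma's moderated F-test over mice called 0 of the 8 members, with 81 (0.57%) called among all tested genes; no member had an unadjusted p under 0.05, beside 1964 genes (13.8%) in all. The lowest p of a member was that of Chrm1 (limma adjusted p = 0.419), whose mouse means ran over 0.31 log2(CPM + 1) units, with both retinas of mouse 65 low at 1.58 CPM on the right and 1.89 CPM on the left. The ranges of the other 7 lay between 0.12 for Ache and 0.24 for Slc5a7, and the median range of the 8 members was 0.23, beside 0.21 for all tested genes.

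The right retina of mouse 65, the one with the high lens sum, held the highest value of Chat, Slc18a3 and Bche and the lowest value of Chrm1, Chrm2 and Slc5a7. The part of lens RNA in these values was not tested. The left retina of mouse 68, with the high muscle sum, held the highest or the lowest value of 0 of the 10 genes. In CPM as deposited it held the highest sum of the 5 receptors (14.0 CPM), and the right retina of mouse 65 held the lowest (11.5 CPM). Without mouse 65 the differences were −0.0054 for Chrm1 and −0.060 for Chrm2, and those of Slc5a7 and Bche were −0.058 and −0.020. In a fit without mice 65 and 68, 0 of the 8 members passed either test. The right retina of mouse 64, whose raw file was damaged, held the lowest Chrm3 and Chat and the highest Chrm2 and Chrm5, and without mouse 64 the differences were 0.0052 for Chrm3 and 0.0092 for Chat. That of Chrm2 was then −0.13, against −0.075 with all 5 mice, and that of Chrm1 was −0.0042, against −0.037; neither passed.

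Genes of the pathway around the members, grouped in lists, are given as counts. In the Gq list (G proteins, phospholipases, inositol trisphosphate receptors, protein kinase C and the KCNQ channels of the M current) 12 of 14 genes were tested and 0 passed right against left, with a median of 0.020 log2(CPM + 1) units. Closest to the threshold were Gnaq, the Gq subunit itself (0.047), Plcb1 (0.074) and Prkcb (−0.037). In the Gi list 13 of 13 were tested and 0 passed (median 0.0056). Gnai3, an inhibitory G protein subunit, had 11.5 ± 0.559 CPM on the right and 10.4 ± 0.568 CPM on the left (SD, n = 5 each), higher on the right in 5 of 5 mice (0.13, SE 0.047, limma unadjusted p = 0.0176 and adjusted p = 0.9996). Gnai1 (0.066) and Kcnj9, a potassium channel opened by Gi-coupled receptors (−0.037), followed.

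Of the genes that end receptor signals, 12 were tested and 0 passed (median 0.015), with Rgs9, the accelerator of G protein shutoff in photoreceptors (−0.044), Rgs4 (0.037) and Arrb1 (0.032) closest. Of genes supplying choline and acetyl-CoA, 13 of the 14 listed were tested and 0 passed (median −0.0052). Slc44a5, a choline transporter-like gene, had 1.02 ± 0.184 CPM on the right and 1.22 ± 0.213 CPM on the left (−0.14, 95% interval −0.32 to 0.043). Gpcpd1, which breaks down glycerophosphocholine, had 18.7 ± 1.83 CPM on the right and 17.7 ± 1.22 CPM on the left and was higher on the right in 5 of 5 mice (0.078, 95% interval −0.012 to 0.17). Acly, which makes cytosolic acetyl-CoA, differed by −0.050.

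No marker of starburst cells passed right against left. Of 12 genes 11 were tested and 0 passed (median 0.012). Megf10, a receptor that spaces starburst cells into a mosaic, had 9.20 ± 0.556 CPM on the right and 9.11 ± 0.367 CPM on the left (SD, n = 5 each). Sox2 had 3.51 ± 0.473 CPM on the right and 3.55 ± 0.382 CPM on the left. Calb2 (−0.11), Isl1 (−0.055) and Gad1 (0.062) had the lowest unadjusted p of the list, and these are also active in other retinal cells, as are most of its genes. Fezf1, which was under the filter, averaged 0.206 CPM on the right and 0.241 CPM on the left. Over the whole list the summed level was 212.2 to 227.3 CPM in right retinas and 208.7 to 230.6 CPM in left retinas. Of 12 markers of other amacrine cells 11 were tested and 0 passed (median 0.014). The peptide gene Vip had 1.97 ± 0.339 CPM on the right and 2.97 ± 0.447 CPM on the left, lower on the right in 5 of 5 mice (−0.42, limma unadjusted p = 0.00043 and adjusted p = 0.9996). Dab1 was higher on the right in 5 of 5 mice (0.12, limma unadjusted p = 0.0235 and adjusted p = 0.9996), and Tfap2a differed by 0.10. For cholinergic neurons outside the retina only Prph (0.693 CPM on the right and 0.661 CPM on the left) and Chrna3 (1.48 CPM on the right and 1.57 CPM on the left) were measured of 6 markers, and the other 4 were not analysed here.

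**Figure D4:**
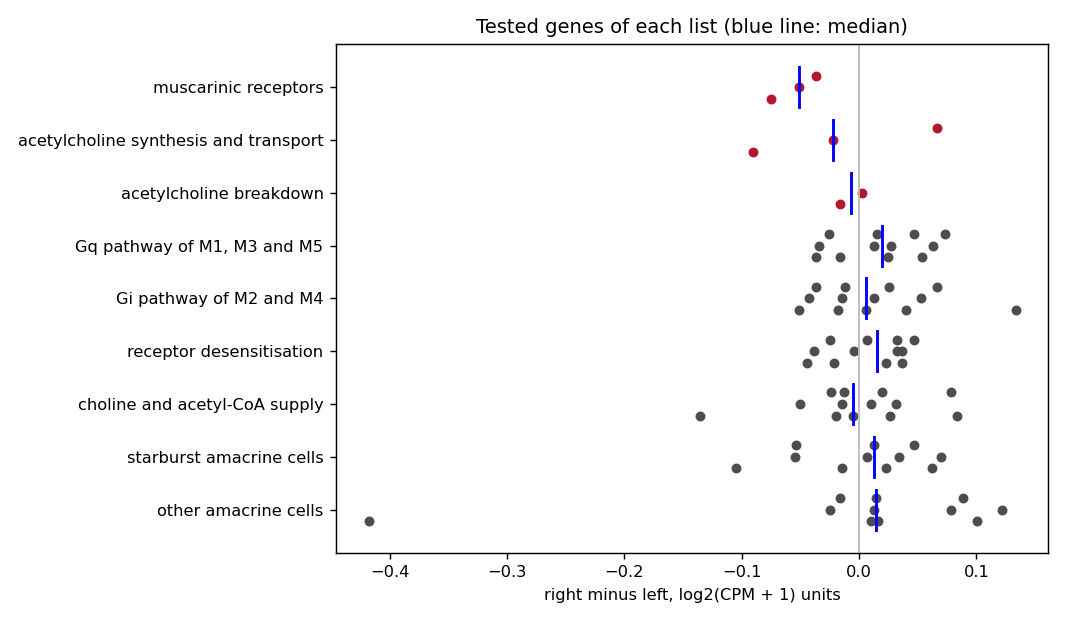
Right minus left, in log2(CPM + 1) units, of the tested genes of the members, of the pathway lists and of the starburst and other amacrine cell lists, with the members in red, other genes in grey and a blue line at the median of the list. The 3 tested receptors lie below 0, at −0.075 to −0.037, the other lists drawn have points on both sides of 0, and Vip at −0.42 is the farthest from 0 among the points drawn; none passed the test.

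By Pearson's r over the 10 libraries, a measure of likeness among 11829 candidate genes for which no p is given, the profile of Chat was most like those of Tfrc, the transferrin receptor (r = 0.957), Plekhg4 (0.934) and Cfap61 (0.934). Chrm1 was most like Txnip, which binds thioredoxin (0.946), Rbm12 (0.926) and Cenpv (0.895). Chrm2 was most like Srrt (0.902), the tight junction gene Marveld3 (0.891) and the kinase gene Wnk2 (0.874). Chrm3 was most like the arginine methyltransferase gene Prmt8 (0.952), the myosin gene Myo19 (0.893) and the helicase gene Helq (0.832). The 10 libraries come from 5 mice and the libraries of a mouse share that animal, and none of these genes is a member. The best of so many candidates over 10 libraries can reach a high r by selection alone. The genes named are thus not shown to be expressed together with the members.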

How the data were processed

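Total RNA of 10 retinas was depleted of ribosomal RNA and made into stranded libraries, per the labels' protocols. The authors deposited CPM per gene with 0.0001 added, a unit inferred from the steps between low values because no label names it. Per the submitters' processing notes, the tools were STAR and Partek and the build GRCm38, also listed as mm10. The counting rule, which decides how unspliced and shared reads were assigned, is not given in the sources used here. That constant was removed, and the step between low values gave the worth of 1 count. Of values up to 20 steps, 90.4% to 91.4% were whole within 0.1, too few to treat the table as reads, so the main test was on the log scale. Limma-voom on the implied counts, which are not all whole, was an alternative, and the ratio bounds come from it.

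CPM were analysed as log2(CPM + 1), which understates changes of low genes. Genes averaging 1 CPM or more (14210) were tested with limma 3.58.1 (R 4.3.3) with mean-variance trend, side and mouse as terms, two-sided, Benjamini-Hochberg adjusted over all tested genes at 0.05. Mice were compared by the moderated F-test of that fit. The 2 retinas of a number come from 1 mouse, and their deviations from the side means correlated across genes at 0.143 to 0.607. The fits were tested on simulated data with known changes. Exon lengths come from GENCODE M21, in which 25029 of the 25272 shared symbols have the deposited coordinates once the stop is moved by 1 base. Figures were drawn with matplotlib 3.10.9.

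The members and lists were chosen with earlier results of these data known. The text names all 10 members, the 3 genes most like Chat and each tested receptor, from each pathway and amacrine cell list the 3 genes of lowest p, and from any list the genes that passed. The rule set for naming also took the 3 genes of lowest p from each list of other cells and tissues. These lists are instead given mainly as sums, with the gene of lowest p for fibroblasts, lens and pigment epithelium. Of genes named as examples beyond this rule, Megf10, Sox2, Fezf1, Prima1, Colq, Prph and 9330158H04Rik were chosen after their values were seen. Alternatives changed the pseudocount, filter, scaling, model, block and mice.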

Additional observations from a re-analysis of the deposited data

Results flagged for a closer look

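In sets of 5 libraries of a side, a value was picked out where its gap to the nearest other value took over 0.71 of the range. Of 60 sets examined 7 had such a value. A rate of about 1 in 20 by chance holds for independent sets of normal values. These sets overlap, as summed lists hold genes also examined singly, and share libraries, so 7 of 60 cannot be compared with it. Slc18a3 reached 1.49 CPM on the right in mouse 65, while its other right values were 1.14 to 1.19 CPM. Bche reached 1.83 CPM there, while its other right values were 1.48 to 1.53 CPM. The summed lens genes were also highest there, at 772.4 CPM against 28.0 to 121.6 CPM, and their part in the values of Slc18a3 and Bche was not tested. The summed cholinesterases were lowest in the right retina of mouse 68, at 13.4 CPM against 14.2 to 14.4 CPM. The summed Gq list was lowest in the right retina of mouse 64, at 327.2 CPM against 339.6 to 341.5 CPM. The summed cholinesterase anchors were lowest in the right retina of mouse 66, at 0.158 CPM against 0.291 to 0.329 CPM. Skeletal muscle genes summed to 79.5 CPM on the left in mouse 68, and the other left sums were 1.73 to 2.31 CPM.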

How the results depend on the processing

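Under 13 other settings and 1 chosen after seeing the data (limma-voom with no filter), 0 genes and 0 members passed right against left, and 0 members passed the test between mice, which the setting without the mouse term could not give, with a lowest limma adjusted p of a member of 0.985 for side and 0.386 for mice. Without the mouse as a replicate block, 0 genes and 0 members passed right against left. Of 114 alternative values of a right-minus-left difference of a member 5 changed sign, each in a fit without a single mouse: Chrm3 (0.0052) and Chat (0.0092) without mouse 64, Slc18a3 (−0.026) and Bche (−0.020) without mouse 65, and Bche (−0.040) without mouse 66. Over fits that each lacked a mouse, these ran from −0.0803 to 0.0052 (Chrm3), −0.0476 to 0.0092 (Chat), −0.0255 to 0.1251 (Slc18a3) and −0.0399 to 0.0424 (Bche). The difference of Chrm2 ran from −0.1265 to −0.0475 and that of Chrm1 from −0.0638 to −0.0042. None of these differences had passed. The count of genes differing between mice, 81 in the fit of 5 mice, ranged from 23 to 88 in fits lacking a mouse (23 without mouse 61, 53 without mouse 66 and 39 without mouse 68). It was 41 without mice 65 and 68 and 130 with limma-voom and no filter. The cause was not tested. Depth limits Chrm4 and Chrm5, with 6 to 37 counts per library, whose 95% intervals of the ratio of right to left ran from 0.596 to 1.68 and from 0.67 to 2.32.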

Other observations

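Among the cell type lists beside the acetylcholine genes, 2 genes differed between mice over all genes tested (limma's moderated F-test). That test called 81 (0.57%) of all tested genes. Nr2e3, a nuclear receptor of rods, averaged 154.2 ± 36.6 CPM in right retinas and 167.5 ± 44.3 CPM in left retinas (SD, n = 5 each). Its mouse means ran over 0.84 log2(CPM + 1) units (adjusted p = 0.00433), while the other 6 rod genes did not pass. Hba-a2, an alpha globin gene of red blood cells, averaged 8.65 ± 2.97 CPM on the right and 8.90 ± 1.92 CPM on the left, with mouse means over 0.96 units (adjusted p = 0.0421). The globin genes Hba-a1, Hbb-bs and Hbb-bt did not pass this F-test (adjusted p = 0.452, 0.352 and 0.113). Reads of Hba-a1 and Hba-a2, near-identical copies, cannot be assigned with certainty. Neither Nr2e3 nor Hba-a2 passed right against left. Summed markers of tissue next to the retina overlapped in range between sides. The fibroblast sum was higher on the right in every animal, and the lens and pigment epithelium sums in all but mouse 64. All tested genes of these lists (5 fibroblast, 7 lens and 6 pigment epithelium) had mean differences above 0, though not in every mouse. Col3a1, for example, was higher on the right in 2 of 5 mice. Of the tested genes, 3 fibroblast, 5 lens and 1 pigment epithelium had a limma unadjusted p under 0.05, beside 2.34% of all tested genes. Genes of a list come from the same libraries and can vary together, so these counts are not independent and show no enrichment. The 4 tested red blood cell and 4 muscle genes were all lower. The lowest p was that of Col1a2 among fibroblast genes (0.40, limma unadjusted p = 0.0015). Among lens genes it was that of Bfsp1 (0.62, limma unadjusted p = 0.0059). Among pigment epithelium genes it was that of Enpp2 (0.16, limma unadjusted p = 0.0254). None of the genes in these lists passed right against left (limma adjusted p = 0.9996 for the 3 named), and the cause was not tested. Fibroblast genes summed to 11.4 to 18.0 CPM in right retinas and 7.60 to 12.3 CPM in left retinas, pigment epithelium genes to 23.7 to 35.7 CPM in right and 22.5 to 31.1 CPM in left retinas, and red blood cell genes to 22.03 to 49.9 CPM in right and 21.0 to 43.9 CPM in left retinas. The iris and ciliary body list, tissue in which muscarinic receptors act on smooth muscle, summed to 7.70 to 9.79 CPM in right retinas and 7.02 to 9.41 CPM in left retinas. Its smooth muscle genes Acta2 and Myh11 averaged 1.09 and 1.28 CPM on the right and 0.93 and 1.51 CPM on the left.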
